A study of Mus musculus with 24 samples.

Results

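T-box genes encode transcription factors that bind DNA through a shared domain, and 5 of them were chosen here by name for their known or likely place in the developing ear: Tbx1, Tbx2, Tbx3, Tbx18 and Tbx20. The count table holds 15736 genes and 4 of the 5 members, and Tbx20 is not analysed here. The 4 genes were described in mouse otocyst epithelium, the wall of the vesicle that forms the inner ear, after signalling through the fibroblast growth factor (FGF) receptor FGFR2b was blocked. The rule that names them uses no measured level.

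Control embryos (con) were Rosa26rtTA/+, so they carried the doxycycline-dependent activator rtTA from the Rosa26 locus and no other listed allele. Experimental embryos (R2b) were Rosa26rtTA/+;Tg(tetO-s(dn)Fgfr2b)/+, so rtTA could also switch on a soluble dominant-negative receptor that takes up FGFR2b ligands. Because Rosa26 drives rtTA in most cells of the embryo, induction was not restricted to the ear. Embryos of both genotypes were exposed to doxycycline, which the pregnant females received as an injection of 1.5 mg/kg followed by chow containing 200 mg/kg. There were 3 exposures, named by the embryonic day at which doxycycline began and its length: E9.75+12h and E9.25+24h, which both ended at E10.25, and E10.25+24h, which ended at E11.25. Each pregnant female gave 1 con pool and 1 R2b pool of dissected epithelia, so a litter is the replicate and each value is a mean over embryos. There were 3 litters at E9.75+12h and 4 at each other exposure, with 18.7 to 28.2 M counts per library.

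In the ear, Tbx1 is needed for growth of the otic vesicle and holds the neurogenic, anterior part of the vesicle in check, while Tbx2 and Tbx3 are close relatives that mostly act as repressors. Tbx18 marks the mesenchyme around the otocyst, where it helps to separate the otic capsule from the fibrocytes of the cochlea. FGF ligands that bind FGFR2b, among them FGF3 and FGF10, act on the otic epithelium, and their signal reaches the nucleus in part through ETS-family factors, which bind DNA at a GGAA core.

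In GENCODE M21 on GRCm38 (mm10), all 4 members are protein-coding. Tbx1 (ENSMUSG00000009097) spans chr16:18580979-18590671 on the minus strand, and Tbx2 (ENSMUSG00000000093) spans chr11:85832551-85841948 on the plus strand. Tbx3 (ENSMUSG00000018604) spans chr5:119670669-119684724 on the plus strand, and Tbx18 (ENSMUSG00000032419) spans chr9:87702800-87731260 on the minus strand. The merged exons, over which levels per length are given, measure 3.52 kb for Tbx1, 3.63 kb for Tbx2, 6.62 kb for Tbx3 and 4.72 kb for Tbx18.

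The sequence upstream of Tbx1 is shown because Tbx1 is among the members whose RNA fell under the blocked receptor, and because ETS factors are a known endpoint of FGF signalling. RefSeq on GRCm38.p6 lists 2 start sites, and the 250 bases before each are written 5′ to 3′ on the minus strand. The outer window, chr16:18590672-18590921, lies before the start of the outermost Tbx1 transcript and overlaps no exon. The inner window, chr16:18588900-18589149, lies inside the Tbx1 span, between exons. Capitals mark the letters CGGAAG, an ETS core with flanking bases, searched on both strands as CGGAAG or CTTCCG.
Tbx1 outer: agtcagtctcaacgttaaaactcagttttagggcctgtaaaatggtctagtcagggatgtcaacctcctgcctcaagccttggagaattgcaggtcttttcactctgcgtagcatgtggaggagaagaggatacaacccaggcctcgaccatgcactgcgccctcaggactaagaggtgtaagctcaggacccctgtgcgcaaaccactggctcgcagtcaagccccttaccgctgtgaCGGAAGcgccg
Tbx1 inner: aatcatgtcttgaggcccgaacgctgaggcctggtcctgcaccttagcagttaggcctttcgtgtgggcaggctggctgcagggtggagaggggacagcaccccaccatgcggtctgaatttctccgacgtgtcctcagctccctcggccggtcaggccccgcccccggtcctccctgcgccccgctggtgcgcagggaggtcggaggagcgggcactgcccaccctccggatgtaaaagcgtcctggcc

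The outer window holds 1 such match, close to the start site, and has 54.4% G and C, while the inner window holds 0 and has 67.2%. Of 32851 windows of the same length before annotated start sites, 13.6% hold this motif on either strand. The letters GGTGTGA, a core of the T-box binding element, searched with TCACACC, are in neither Tbx1 window and in 3.33% of all windows. The motifs do not overlap each other, a match is a description of letters only, and no binding was measured. Tbx2, Tbx3 and Tbx18 are named without a printed window.

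The transgene was checked first, through Fgfr2, whose ectodomain the transgene shares, and Ighg1, an immunoglobulin constant region of the kind to which the soluble receptor is fused. At E9.75+12h and E9.25+24h, Ighg1 had 1 to 36 counts in every con library and 19414 to 76096 in every R2b library. At E10.25+24h the labels and the transgene disagreed: the con-labelled pools of litters 1 to 4 had 15754, 28, 5106 and 16 Ighg1 counts, and the R2b-labelled pools had 1504, 25248, 23658 and 19155. Fgfr2 gave the same picture there, with CPM (read counts scaled to library size by the trimmed mean of M-values) of 878.7, 230.6, 404.3 and 207.9 in the con-labelled pools and 313.4, 1239, 872.5 and 964.7 in the R2b-labelled pools. In litter 1 the con-labelled library was thus the higher of the pair, and in litter 3 the con-labelled library carried transgene reads. No label was changed, and every direction at E10.25+24h below is by label. The R2b effects of the 4 members there are also given without litter 1 and without litters 1 and 3.

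Tissue markers were read beside the members. All 10 markers of otic epithelium were in the table, with a summed level of 1524 to 7074 CPM across libraries. All 13 markers of periotic mesenchyme were present too, none at 0 in any library, and their sum ranged from 78.76 to 1337 CPM. In bulk RNA, fewer cells of a type and less RNA per cell cannot be told apart.

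Tbx2, Tbx1 and Tbx3 were well expressed in con epithelium and Tbx18 was low. Per kilobase of exon, Tbx2 stood highest in con libraries, at 152 ± 11 CPM per kb (SD, n = 3) at E9.75+12h, 109 ± 19 (n = 4) at E9.25+24h and 120.2 ± 11.6 (n = 4) at E10.25+24h. Tbx1 followed with 53.1 ± 5.5, 33.7 ± 3.1 and 35.7 ± 3.9 CPM per kb, and Tbx3 with 20.4 ± 1.9, 16.2 ± 2.4 and 18.99 ± 2.36 in the same order of exposures. Tbx18 came last, at 0.68 ± 0.17, 1.04 ± 0.82 and 1.84 ± 1.08 CPM per kb. Neighbours in this order did not overlap between any con libraries of an exposure, and each gap was larger than the SDs.

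**Figure D1:**
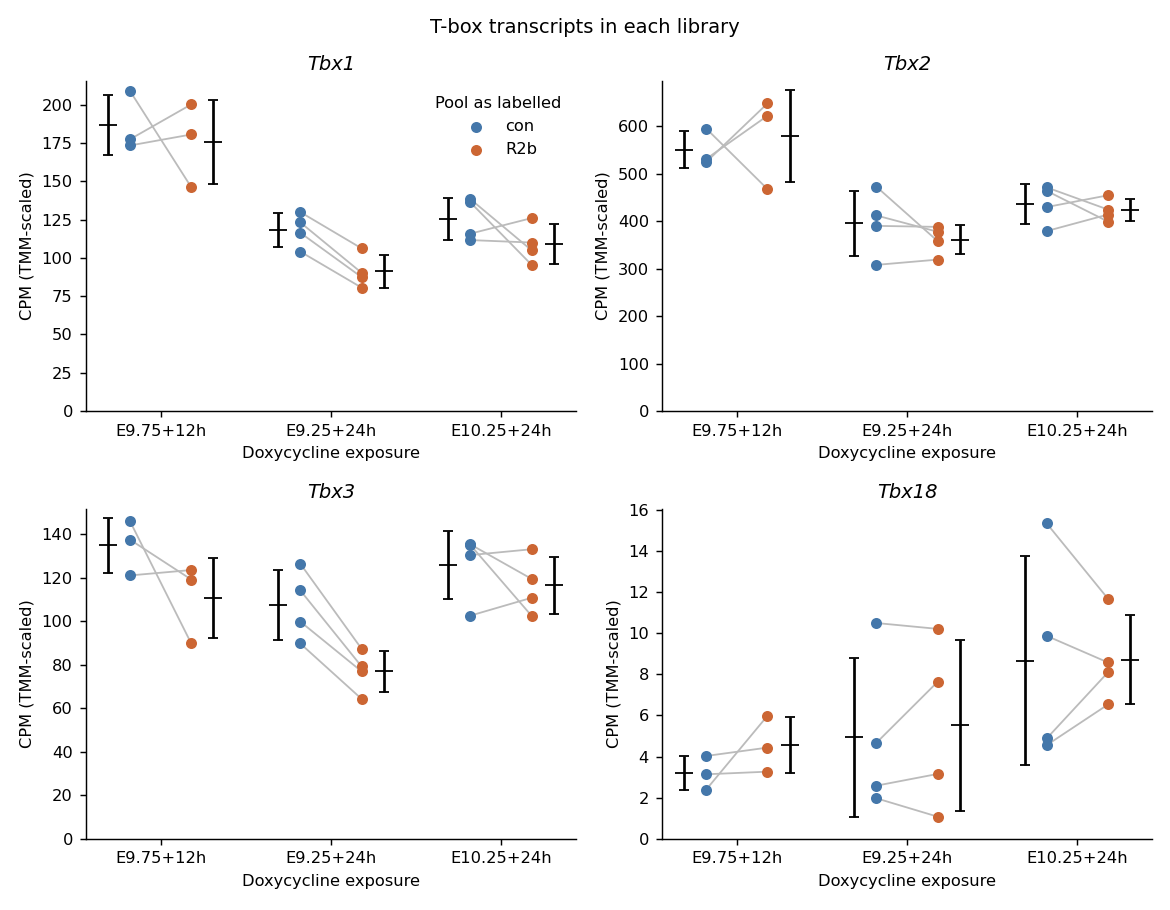
CPM of Tbx1, Tbx2, Tbx3 and Tbx18 in each of 22 libraries, by exposure and labelled genotype, 1 point per litter pool. Tbx1 and Tbx3 lie lower in R2b than in con at E9.25+24h, while Tbx18 spreads over about the same range in both genotypes.

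Under the longer exposure that ended at E10.25 (E9.25+24h), Tbx1 and Tbx3 fell and Tbx2 and Tbx18 did not pass the test. Tbx1, a regulator of otic vesicle growth, was at 116, 123, 129.9 and 104 CPM in con litters 1 to 4 and at 87.5, 90.3, 106 and 80.6 CPM in R2b. Every R2b pool was below the con pool of its own litter, but the groups touched, because R2b litter 3 (106 CPM) lay above con litter 4 (104 CPM). The mean went from 118 ± 11 to 91.2 ± 10.8 CPM (SD, n = 4), so it fell by 22.7%, a log2 change of -0.37 (SE 0.10), with an edgeR quasi-likelihood FDR of 0.0333. The two-sided exact permutation p for Tbx1 was 0.0571, where 4 against 4 can reach 0.0286 at the lowest.

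Tbx3, a repressor of the same subfamily as Tbx2, was at 126, 114, 99.8 and 89.8 CPM in con and at 87.3, 79.2, 77.0 and 64.3 CPM in R2b. All 4 R2b pools lay below all 4 con pools, as held for 10.26% of the genes tested there. The mean went from 108 ± 16 to 77.0 ± 9.5 CPM (n = 4), so it fell by 28.2%, a log2 change of -0.48 (SE 0.12), with an edgeR FDR of 0.033. The exact permutation test of Tbx3, two-sided, gave 0.0286, which is the lowest p that 4 against 4 can give. Tbx1 fell by 0.41, 0.45, 0.29 and 0.37 on the log2 scale within litters 1 to 4, and Tbx3 by 0.53, 0.53, 0.38 and 0.48, so no litter carried either change alone.

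Tbx2 in the same libraries was at 412, 390.0, 472 and 308 CPM in con and at 377, 388, 358 and 319 CPM in R2b. The groups overlapped, and the log2 change of -0.13 (SE 0.12) had an edgeR FDR of 0.516. Tbx18 was at 4.67, 2.58, 1.97 and 10.5 CPM in con and at 7.64, 3.16, 1.07 and 10.21 CPM in R2b. Litter 4 was the highest and litter 3 the lowest of Tbx18 in both genotypes, and the change of 0.17 (SE 0.69) had an FDR of 0.895.

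So 2 of the 4 members were called at an FDR under 0.05 in E9.25+24h, both lower, where 15.6% of the 14979 genes tested were called and 6.5% were called lower. The summed mesenchyme markers ran from 78.76 to 1337 CPM in con and from 86.7 to 1216 CPM in R2b, and 0 of 12 tested mesenchyme markers were called by edgeR. The summed epithelial markers ran from 1524 to 2773 CPM in con and from 2406 to 4206 CPM in R2b. Much of that sum was Oc90, at a mean of 1089 CPM in con and 1939 CPM in R2b (edgeR FDR 0.153). Of the 10 epithelial markers, 2 were called higher (Pax2 and Cdh1) and 2 lower (Hmx2 and Hmx3). The part of these markers in the members' change was not tested. With the litter as a block, which called 39.4% of all genes tested, the log2 changes were -0.37 for Tbx1 (edgeR FDR 4.07e-05) and -0.47 for Tbx3 (FDR 1.02e-05). Without the block, leaving out litter 1 or litter 2 took both FDRs over the threshold, to 0.159 and 0.0969 without litter 1 and to 0.173 and 0.173 without litter 2, and without litter 3 Tbx3 alone missed it (0.0936).

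**Figure D2:**
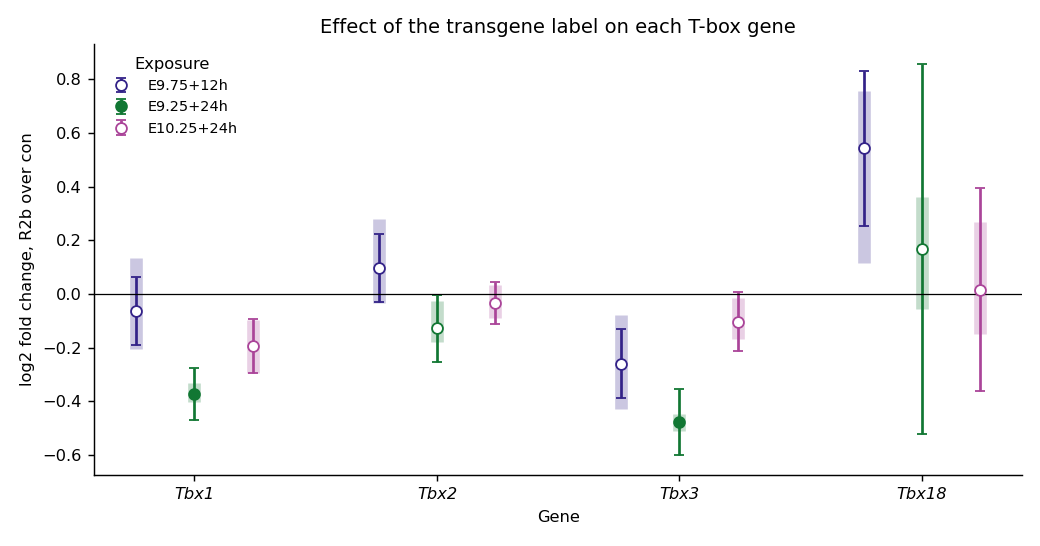
Log2 fold change of R2b against con for each member at each exposure, with bars of 1 SE and shading for the range when each litter was left out; filled points have an edgeR FDR under 0.05. The filled points are Tbx1 and Tbx3 at E9.25+24h, at -0.37 and -0.48.

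The shorter exposure that also ended at E10.25 (E9.75+12h) gave no call among the 4 members, where 20% of the 14882 genes tested were called. Tbx3 was at 137, 146 and 121 CPM in con litters 1 to 3 and at 119, 89.7 and 123 CPM in R2b. It was lower in R2b in 2 of 3 litters, the groups overlapped, and the log2 change of -0.26 (SE 0.13) had an edgeR FDR of 0.176. Tbx1 was at 177, 209 and 173 CPM in con and at 200.2, 146 and 181 CPM in R2b, with a log2 change of -0.06 (SE 0.13, edgeR FDR 0.754). Litter 2 alone had the lower Tbx1 in R2b, and the sign turned without it, to 0.13. The summed mesenchyme markers were 144.4, 107.2 and 390.7 CPM in con litters 1 to 3 and 172.7, 357.1 and 206.7 CPM in R2b. Litter 2 thus had the lowest sum in con and the highest in R2b. The part of these sums in the members' values was not tested.

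Tbx2, the most abundant member, was at 531, 595 and 524 CPM in con and at 622, 467 and 648 CPM in R2b. The 2 highest Tbx2 libraries and the lowest were all R2b, and the log2 change of 0.10 (SE 0.13) had an edgeR FDR of 0.619. Without litter 2 it was 0.28 with an FDR of 0.0398, the only call among the members in that setting. Tbx18 was at 3.14, 2.39 and 4.03 CPM in con and at 3.26, 5.98 and 4.44 CPM in R2b, higher in R2b in 3 of 3 litters, with a log2 change of 0.54 (SE 0.29, edgeR FDR 0.203). Of the 4 members, 0 had an unadjusted p under 0.05 in edgeR and DESeq2 called 0, and 3 against 3 libraries cannot go below a permutation p of 0.1.

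In simulated data with the group sizes used here, 1.4-fold changes, a fold near that of Tbx3, were recovered for 30% of changed genes under the 12-hour exposure. The share was 51% for the 24-hour exposure that ended at E10.25. For the later 24-hour exposure it was 50%, but there the real labels and the transgene reads disagreed in litters 1 and 3. That last share therefore cannot be used to read the missing calls by label at the later exposure. Each simulation changed only 100 genes by 1.4-fold and 100 by 2-fold. In the real data, 20% of 14882 genes were called under the 12-hour exposure. Under the earlier 24-hour exposure, 15.6% of 14979 were. An FDR threshold is harder to pass where fewer genes change. The 30% and 51% therefore do not give the chance of a call here, and cannot be used to read the missing calls under the 12-hour exposure. The effect at E9.25+24h minus that at E9.75+12h was -0.29 (SE 0.17) for Tbx1, -0.21 for Tbx2, -0.20 (SE 0.19) for Tbx3 and -0.36 for Tbx18. The edgeR FDRs of these differences were 0.496, 0.648, 0.705 and 0.9, with 0 of 4 under an unadjusted p of 0.05, and 0 of 15688 genes (0%) were called. No member was thus shown to respond differently between the 12-hour and the 24-hour exposure.

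At the later exposure (E10.25+24h), none of the 4 members was called by label, and neither was any of the 15203 genes tested (0%). Tbx1 was at 116, 136, 112 and 138 CPM in the con-labelled pools of litters 1 to 4, and at 126, 95.4, 110.0 and 105 CPM in the R2b-labelled pools. Litters 2 and 4, whose transgene reads followed the labels, had Tbx1 differences of -0.51 and -0.40 on the log2 scale. Litter 1, whose transgene reads went against the labels, had a Tbx1 difference of 0.12, and litter 3 one of -0.02. With all 4 litters the log2 change was -0.19 (SE 0.10, edgeR FDR 1). Tbx1 was -0.30 without litter 1 (FDR 0.225) and -0.43 without litters 1 and 3 (FDR 0.26). With the litter as a block and litters 1 and 3 left out, its FDR was 0.0214, a setting that was chosen after seeing the data, rests on 2 litters and called 5.77% of all genes.

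Tbx3 was at 130.4, 135, 103 and 135 CPM in the con-labelled pools and at 133, 102, 111 and 119 CPM in the R2b-labelled pools. Its log2 differences were -0.40 and -0.18 within litters 2 and 4 and 0.03 and 0.11 within litters 1 and 3. Its log2 change was -0.10 (SE 0.11) with all litters, -0.14 without litter 1, -0.26 without litters 1 and 3, and -0.27 with the litter as a block and litters 1 and 3 left out (edgeR FDR 0.089). Tbx2 was at 464, 429.6, 379 and 471 CPM in the con-labelled pools and at 399, 454, 414 and 424 CPM in the R2b-labelled pools, and its change was -0.04 (SE 0.08), 0.033 without litter 1 and -0.014 without litters 1 and 3. Tbx18 was at 9.87, 4.88, 15.3 and 4.56 CPM in the con-labelled pools and at 8.58, 8.10, 11.7 and 6.53 CPM in the R2b-labelled pools, with a change of 0.02 (SE 0.38). Within litters 1 to 4 the log2 differences of Tbx18 were -0.20, 0.72, -0.39 and 0.51, so it was higher in the R2b-labelled pool of the 2 litters whose transgene reads followed the labels. Its change was 0.10 without litter 1 and 0.65 without litters 1 and 3 (edgeR FDR 0.382, or 0.0912 with the litter as a block). The genotypes overlapped for all 4 members, 0 of 4 had an unadjusted p under 0.05 in edgeR, and DESeq2 called 0.

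**Figure D3:**
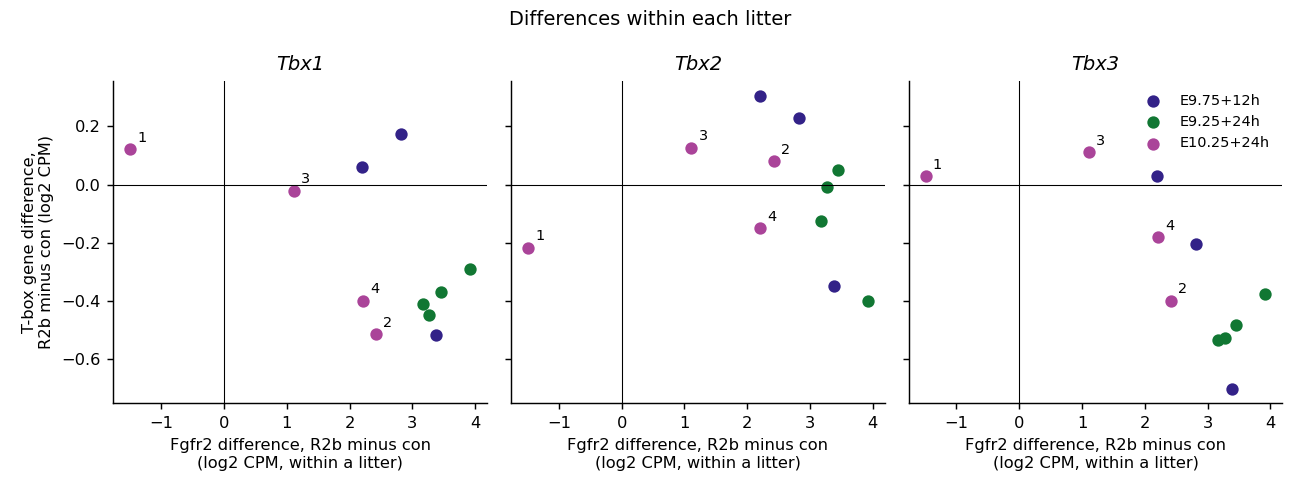
Within-litter log2 difference (R2b minus con by label) of Tbx1, Tbx2 and Tbx3 against that of Fgfr2, 1 point per litter, with the litters of E10.25+24h numbered. Litter 1 of E10.25+24h has a negative Fgfr2 difference (-1.49), and all 4 litters of E9.25+24h lie below 0 for Tbx1 and Tbx3.

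Between the later and the earlier 24-hour exposure, the Tbx3 effect differed by 0.37 (SE 0.18, unadjusted p 0.0489, edgeR FDR 0.579) and the Tbx1 effect by 0.18 (SE 0.16, FDR 0.845). The values for Tbx2 and Tbx18 were 0.09 and -0.15, and 0 of the 4 were called by edgeR or DESeq2. Without litter 1 of E10.25+24h the differences were 0.32 for Tbx3 and 0.06 for Tbx1. They use the labels of that exposure, and they share the E9.25+24h libraries with the contrast against E9.75+12h.

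Levels in con were compared to ask how the members change with stage. For Tbx1, Tbx2 and Tbx3 the difference was larger in value between the 2 exposures that ended at the same stage than between those that ended a day apart, though these differences were not tested against each other. Tbx1 was 1.58-fold higher in con at E9.75+12h than at E9.25+24h (log2 0.66, SE 0.10, edgeR FDR 0.000441) and Tbx2 was 1.39-fold higher (0.48, SE 0.12, FDR 0.0109). The con libraries of the 2 exposures did not overlap for either gene, but the share of all genes that did the same was not counted. Tbx3 was 0.33 higher (SE 0.13, FDR 0.0668), a value that passed under median-of-ratios size factors (FDR 0.0436) and in DESeq2 (FDR 0.0206), and Tbx18 was 0.63 lower (FDR 0.438). Called genes made up 33.8% of the 15392 tested. The library numbers in the titles carry another prefix for each exposure, and these exposures also differ in the start and length of doxycycline treatment, so library series and treatment cannot be told apart.

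From E10.25 to E11.25 under 24 hours of doxycycline, none of the members was called in con-labelled pools, where 35.7% of genes were. Tbx1 was 0.08 higher at the later stage, Tbx2 0.14, Tbx3 0.23 and Tbx18 0.81 higher on the log2 scale, with edgeR FDRs of 0.512, 0.361, 0.152 and 0.24. In both edgeR and DESeq2 0 of 4 were called, and 0 had an unadjusted p under 0.05 in edgeR. The Tbx18 value depended on which libraries were used. It was 1.50 (edgeR FDR 0.0269) without con litter 4 of E9.25+24h, and -0.07 when the con-labelled pools of litters 1 and 3 at E10.25+24h were left out together. In that last setting Tbx1 was 0.21, Tbx2 0.19 and Tbx3 0.33 higher at the later stage, with edgeR FDRs of 0.176, 0.389 and 0.103.

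Tbx18 followed the mesenchyme markers from library to library. At E9.25+24h the litter order of Tbx18 in each genotype (litter 4, then 1, 2 and 3) was the order of the summed mesenchyme markers. These were 315.5, 164.1, 78.76 and 1337 CPM in con litters 1 to 4 and 389.5, 147.6, 86.7 and 1216 CPM in R2b. The order was not particular to mesenchyme, since the summed markers of endothelium and of blood had it too in both genotypes. In con, endothelium ran from 4.736 to 218.1 CPM and blood from 9.472 to 1623 CPM. At E10.25+24h the highest Tbx18 (15.3 CPM) and the highest mesenchyme sum (815.7 CPM) were both in the con-labelled library of litter 3. The con-labelled library of litter 1 stood off this order, with 9.87 CPM of Tbx18 beside a mesenchyme sum of 210.0 CPM. Over 22 libraries centred within exposures, Pearson's r between Tbx18 and the mesenchyme sum was 0.877 and Spearman's rho 0.818, given as a description with no p, since the points share libraries and depth.

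**Figure D4:**
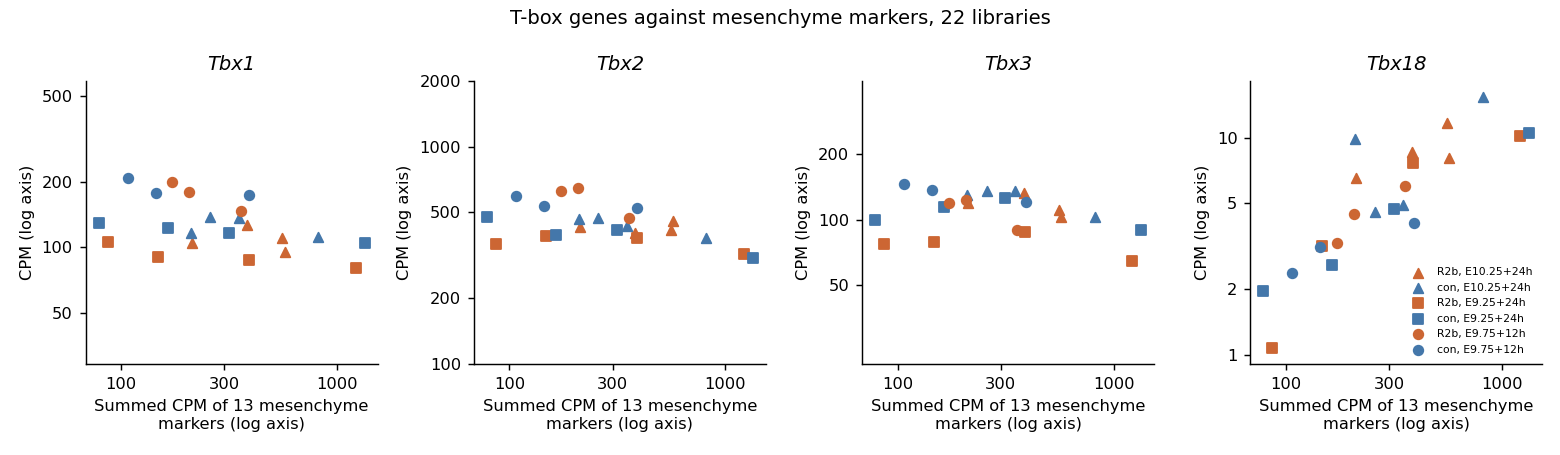
CPM of each member against the summed CPM of 13 mesenchyme markers in 22 libraries, both on log axes, by exposure and labelled genotype. Tbx18 rises with the mesenchyme sum (r = 0.877 after centring within exposures), while Tbx2 runs the other way (r = -0.685).

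The 3 epithelial members ran against the mesenchyme sum, with r of -0.685 for Tbx2, -0.525 for Tbx1 and -0.429 for Tbx3. Tbx1 and Tbx3 varied together (r = 0.797, rho 0.784), more closely than either did with Tbx2 (0.543 and 0.544). These values hold the R2b changes as well as the spread between litters.

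The balance of Tbx2 to Tbx3, compared after the values were seen, can be read within a library without any scaling. At E9.75+12h there were 3.86, 4.08 and 4.33 Tbx2 counts per Tbx3 count in con and 5.22, 5.21 and 5.25 in R2b, and the groups did not overlap. At E9.25+24h the ratios were 3.26, 3.42, 4.73 and 3.43 in con and 4.32, 4.90, 4.65 and 4.96 in R2b, with con litter 3 inside the R2b range. At E10.25+24h they were 3.56, 3.18, 3.70 and 3.48 in the con-labelled pools and 3.0, 4.44, 3.74 and 3.55 in the R2b-labelled pools. A ratio shows unequal change of the 2 genes and not which of them moved.

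Of 13 other T-box names looked for, 3 were in the table, and 0 of the 3 were called in any exposure by edgeR. Mga, a large protein that joins a T-box domain to a MAX-binding one, was at 196 to 285 CPM, Tbx6, a factor of presomitic mesoderm, at 0.47 to 2.87 CPM, and Tbx15, a mesenchymal relative of Tbx18, at 0.45 to 24.0 CPM. Tbx15 behaved as Tbx18 did, with r of 0.763 to Tbx18 and 0.933 to the mesenchyme sum. The Tbx6 change at E9.75+12h was 1.04 (SE 0.43, edgeR FDR 0.114), on libraries of 13 to 66 counts.

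Tbx3 has 2 annotated noncoding neighbours on the opposite strand. Tbx3os1 shares 115 exonic bases with Tbx3 and was not called in any exposure. The annotated span of Tbx3os2 lies beyond the 3′ end of Tbx3, with 370 bases between the spans. At E9.25+24h Tbx3os2 went from 1.08 ± 0.37 to 0.28 ± 0.13 CPM (SD, n = 4), a log2 change of -1.92 (SE 0.42, edgeR FDR 0.0189). All its R2b pools lay below all con pools, as held for 10.26% of the genes tested there, of which 6.5% were called lower. These levels are low, and Tbx3os2 missed the threshold in 4 of 20 alternatives. Tbx3os2 was named after its values were seen, and whether the counting used the strand is not given in the sources used here, so reads of Tbx3 and its neighbours on the other strand may not be separable.

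Genes whose pattern was most like each member were ranked by Pearson's r over the 22 libraries, centred within exposures, among 13840 genes. For Tbx1 these were Hmx3 (r = 0.914), Pcdh8 (0.893) and Hmx2 (0.891), and Jak1 was the most opposed (-0.897). Hmx2 (0.890) and Hmx3 (0.849), paired homeobox genes of the vestibular otic epithelium, also led the list for Tbx3. Kremen1 (0.843), a receptor for Dickkopf proteins, came next for Tbx3, with C2cd2 the most opposed (-0.850). All these r values hold the R2b changes as well as the spread between litters. Hmx2 and Hmx3 were themselves called lower in R2b at E9.25+24h (log2 -1.05 and -0.72, edgeR FDR 0.00948 and 0.0257). For Tbx2 the closest were Rffl (0.813), Sema4d (0.808) and Ttll1 (0.779), and Fez1 was the most opposed (-0.866). For Tbx18 they were Foxc1 (0.920), a forkhead factor of periotic mesenchyme that is among the 13 markers, Zic2 (0.915) and Itpripl2 (0.913), with Rundc3b the most opposed (-0.860).

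Genes known to act with T-box factors in the ear, a list of 17 of which 16 could be tested, changed in both directions. At E9.75+12h 6 of 16 rose and 2 fell, with a median log2 change of 0.436 beside 0.0113 over all genes tested, of which 10.20% were called higher and 9.777% lower. At E9.25+24h 4 rose and 4 fell, with a median of 0.166 beside -0.0105 over all genes tested, of which 9.09% were called higher and 6.5% lower. With the litter as a block these counts were 5 and 2 at E9.75+12h, where that fit called 11.4% of all genes, and 8 and 5 at E9.25+24h, where it called 39.4%. They were 2 and 0 without litter 1 at E9.75+12h (2.92% of all genes called), and 2 and 1 without litter 1 (2.15%) or 1 and 2 without litter 2 (3.06%) at E9.25+24h. With all libraries in 1 fit the counts were 2 and 1 at E9.75+12h, though 29.1% of all genes were called there. In that fit they were 3 and 4 at E9.25+24h, where 13.3% of all genes were called.

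Otx1, a homeobox gene of the lateral canal and ventral otocyst whose expression depends on Tbx1, and its relative Otx2 fell at both exposures. Otx1 went from 124.5 to 68.4 CPM at E9.75+12h (log2 -0.84, SE 0.15, edgeR FDR 0.00343) and from 58.5 to 20.6 CPM at E9.25+24h (-1.50, SE 0.14, FDR 0.000768). Otx2, named after its values were seen, fell further in value, from 35.95 to 18.04 CPM (-0.97, SE 0.19, edgeR FDR 0.00566) and from 27.9 to 5.99 CPM (-2.21, SE 0.45, FDR 0.0149). Cdkn1a, the cell-cycle inhibitor p21 and a gene that Tbx2 and Tbx3 repress, rose from 79.4 to 144.8 CPM (0.89, FDR 0.000853) and from 62.2 to 118.6 CPM (0.94, FDR 0.00201). Neurog1 and Neurod1, which drive otic neurogenesis, rose at E9.75+12h by 0.78 (edgeR FDR 0.00144) and 0.53 (FDR 0.00492) on the log2 scale. At E9.25+24h Neurog1 was 0.39 higher (FDR 0.203) and Neurod1 -0.13 (FDR 0.671). Fgf8, an FGF ligand, rose at E9.25+24h from 1.402 to 4.392 CPM (1.65, FDR 0.00521), and Cyp26b1, which degrades retinoic acid, rose from 17.8 to 30.8 CPM (0.80, FDR 0.00843). Both also rose at E9.75+12h, Fgf8 from 1.203 to 4.682 CPM (1.99, edgeR FDR 0.00685) and Cyp26b1 from 25.68 to 34.15 CPM (0.43, FDR 0.0403).

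At E9.75+12h the summed markers of otic neuroblasts were 224.4 to 256.3 CPM in con and 327.9 to 385.2 CPM in R2b. Those of neural crest and glia were 1174 to 1266 CPM in con and 1521 to 1727 CPM in R2b. Only 3 of the 4 crest and glia markers were in the count table, which lacks Foxd3, and most of the sum was Sox10 and Erbb3. Bulk RNA does not show which cells these reads came from, so the sum does not measure the amount of crest or glia. Sox10 averaged 619.6 CPM in con and 868.6 CPM in R2b, and Erbb3, which was uncalled, 555.1 and 645 CPM. Tubb3, Neurog1 and Neurod1 were the 3 of 5 neuroblast markers called higher, where 10.20% of all genes were. Isl1 was -0.19 and Pou4f1 0.28 on the log2 scale, both uncalled. The part of either sum in the change of the T-box list was not tested. Neurog1 and Neurod1 are in both the neuroblast list and the T-box list.

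**Figure D5:**
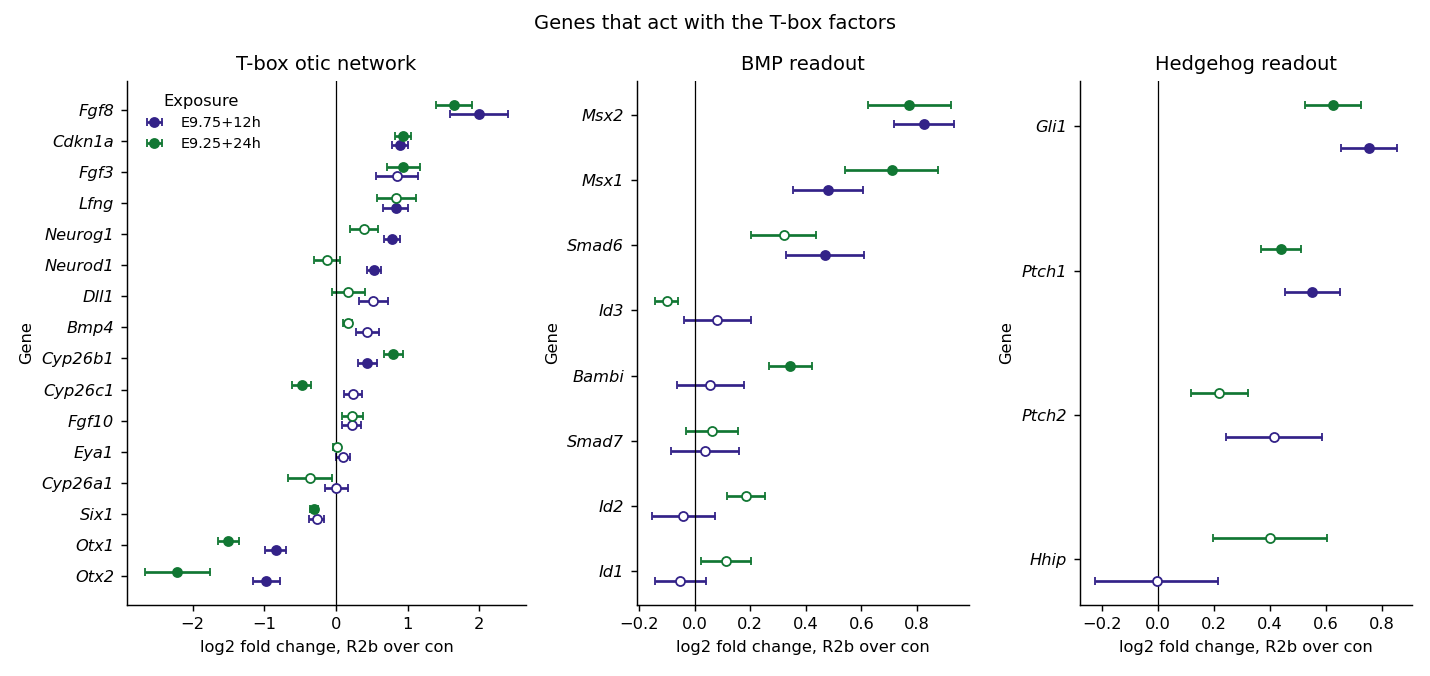
Log2 fold change of R2b against con (bars of 1 SE) at E9.75+12h and E9.25+24h for genes of the T-box otic list, the BMP readout and the Hedgehog readout; filled points have an edgeR FDR under 0.05. Otx2, at -0.97 and -2.21, and Otx1, at -0.84 and -1.50, lie lowest, and Gli1, Ptch1, Msx1 and Msx2 are above 0 and filled at both exposures.

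Bone morphogenetic protein (BMP) signalling induces Tbx2 and Tbx3 in several tissues, and its readout was read from 8 genes. At E9.75+12h 3 of 8 rose and 0 fell (median 0.0686), where 10.20% of all genes were called higher, and at E9.25+24h 3 of 8 rose and 0 fell (median 0.253), where 9.09% were. Msx2 rose by 0.83 (SE 0.11, edgeR FDR 0.000891) and 0.77 (SE 0.15, FDR 0.0128), and Msx1 by 0.48 (FDR 0.0228) and 0.71 (FDR 0.0249). Smad6, an inhibitor of BMP signalling, rose at E9.75+12h (0.47, FDR 0.0374, but 0.0625 with the litter as a block). Smad6 missed the threshold in 10 of 18 alternatives there, with edgeR FDRs up to 0.34. Bambi, a decoy receptor, rose at E9.25+24h (0.34, FDR 0.0217). At E9.25+24h Bambi missed the threshold in 7 of 22 alternatives and Msx1 in 9 of 22. The BMP count at E9.75+12h was 1 without litter 1, where 2.92% of all genes were called. It was also 1 with the con or R2b pool of litter 1, the con pool of litter 2 or the R2b pool of litter 3 left out. Those 4 fits called 8.37% to 12.3% of all genes. Msx1 at E9.75+12h missed the threshold in 8 of 18 alternatives. The count at E9.25+24h was 0 without litter 1 (2.15% of all genes called) or without litter 2 (3.06%). With the litter as a block, which called 39.4% of all genes, it was 5 higher and 1 lower.

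Hedgehog signalling patterns the ventral otocyst, and 2 of its 4 readout genes rose at each of these exposures. Gli1 rose by 0.76 (SE 0.10, edgeR FDR 0.000931) and 0.63 (SE 0.10, FDR 0.00653), and Ptch1 by 0.55 (FDR 0.00342) and 0.44 (FDR 0.00655), at E9.75+12h and E9.25+24h in that order. The Hedgehog medians were 0.483 and 0.42. The shares of all genes called higher were 10.20% and 9.09%. The Hedgehog count was 1 without litter 1 at E9.75+12h (2.92% of all genes called), and 0 with the block as well (1.79%). At E9.25+24h it was 1 without litter 2 (3.06%).

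At E10.25+24h, 0 genes of these 3 lists were called by label in edgeR. With the litter as a block and litter 1 left out, 3 of the 16 T-box list genes were called higher and 1 lower, and 1 BMP gene was called higher, in a fit that called 3.35% of all genes. With litters 1 and 3 left out as well as the block, the T-box list had 6 called higher and 2 lower, and the BMP and Hedgehog lists had 1 called higher each, in a fit chosen after seeing the data that rests on 2 litters and called 5.77% of all genes. By label and with all litters, Otx1 was at 53.5 CPM in the con-labelled pools and 38.5 CPM in the R2b-labelled pools (log2 -0.46, SE 0.15, unadjusted p 0.0132, edgeR FDR 1).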

How the data were processed

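The authors deposited raw read counts per Ensembl gene. Reads were aligned with Novoalign 2.08.03 to mm10, per the submitters' processing notes, and the kit was stranded with oligo(dT) selection, per the labels' protocols; the counting tool, annotation and strand setting are not given in the sources used here. Of 24 samples, 22 had a column, joined by the library number in the title, and 2 columns named no sample and were not used. Symbols, positions and exon lengths came from GENCODE M21, which named 15522 of 15736 genes.

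Counts were tested within each exposure in edgeR 4.0.16 (R 4.3.3; filterByExpr, TMM, estimateDisp, glmQLFit, glmQLFTest), with a Benjamini-Hochberg FDR under 0.05 over all genes tested. Standard errors came from the F statistic, CPM from TMM factors over 22 libraries, and the prior count was 0.125 for fitted folds and 2 for log2 CPM. Differences between exposures were contrasts of 6 group means. Permutation tests were two-sided and exact, on log2 CPM. The scripts were tested on simulated data. Depth leaves counting error small beside the spread between litters for Tbx1, Tbx2 and Tbx3, with 1348 counts or more in every library, while Tbx18 had 24 to 389.

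The labels tie con and R2b pools to a shared pregnant female. Same-litter correlations of deviations from the group means lay between -0.255 and -0.115 in the E9.75+12h litters, where the pairing rests on the labels alone. They lay between 0.424 and 0.765 in the E9.25+24h litters and between -0.115 and 0.387 in those of E10.25+24h. The members, lists, tests and alternatives were chosen with earlier results of these data known. Named genes are the members, the other T-box genes, at most 4 called genes per list and exposure, Fgfr2 and Ighg1, and the 3 most alike genes and the most opposed gene per member. Alternatives were median-of-ratios size factors, other filters, DESeq2 1.42.0, the litter block, all libraries in 1 fit, and each litter or library left out.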

Additional observations from a re-analysis of the deposited data

Results flagged for a closer look

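Among the libraries labelled con at E10.25+24h, Tbx3 in litter 3 stood apart, at 103 CPM against 130 to 135 CPM in the other 3 libraries. The gap was 0.851 of the group's range, over Dixon's critical value for 4 samples. Of 16 groups of 4 tested, this was the 1 that passed, and chance passes about 5% of groups. The same library had 5106 Ighg1 counts, the highest mesenchyme sum of its group (815.7 CPM) and the highest Tbx18 (15.3 CPM), and their part in the Tbx3 value was not tested.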

How the results depend on the processing

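Tbx1 and Tbx3 at E9.25+24h were lower in R2b under all 22 alternatives tried. At E9.25+24h, 0 to 2 members were called when a litter or a library was left out without the block, and 2 or 3 in fits with the replicate block. Tbx1 had an FDR of 4.07e-05 with the block. At E9.75+12h 0 or 1 was called with a litter or library left out, and at E10.25+24h 1 with the replicate block and litters 1 and 3 left out. Of the con levels at E10.25+24h against E9.25+24h, 0 or 1 was called with a library left out. At E9.75+12h the block changed the call of no member.

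Values that changed sign were all uncalled, and the cause was not tested. At E9.75+12h, leaving out a litter or library gave -0.21 to 0.13 for Tbx1, -0.034 to 0.28 for Tbx2 and -0.83 to 0.83 for Tbx15. The block gave 0.11 for Tbx15. With litter 1 also out it gave -0.00037 for Tbx2 and 0.50 for Tbx15, without litter 2 0.13 for Tbx1, and without litter 3 -0.046 for Tbx2 and 0.75 for Tbx15. At E9.25+24h the ranges with a litter or library left out were -0.31 to 0.84 for Tbx18, -0.34 to 0.20 for Tbx6, -1.49 to 1.43 for Tbx15 and -0.044 to 0.020 for Mga. The block gave -0.10 for Tbx18 without litter 1, 0.10 for Tbx6 and 0.0039 for Mga without litter 2, 0.0025 for Mga without litter 3, and 0.015 for Tbx6 and 0.016 for Tbx15 without litter 4. At E10.25+24h the ranges were -0.10 to 0.033 for Tbx2, -0.20 to 0.44 for Tbx18, -0.55 to 0.48 for Tbx15 and -0.024 to 0.094 for Mga. The block gave 0.064 for Tbx15. Without litter 1 it gave 0.029 for Tbx2, without litter 2 -0.041 for Tbx18, 0.23 for Tbx15 and -0.027 for Mga, without litter 3 0.31 for Tbx15, and without litter 4 0.0038 for Tbx2 and 0.59 for Tbx15.

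The difference of the Tbx18 effects between exposures ranged from -0.61 to 0.055 (E9.25+24h against E9.75+12h) and from -0.35 to 0.11 (E10.25+24h against E9.25+24h) with a litter left out, and the latter was 0.043 with the replicate block. The con level of Tbx18 at E9.75+12h against E9.25+24h ranged from -0.85 to 0.047 with a library left out. That at E10.25+24h against E9.25+24h ranged from 0.39 to 1.50, and was -0.066 without the con-labelled libraries of litters 1 and 3.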
